A study of Homo sapiens with 12 samples.

Results

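The heat shock chaperones described here are the products of 10 of the 20046 genes named on the array, HSPA1A, HSPA1B, HSPA8, HSPH1, DNAJB1, HSP90AA1, HSP90AB1, HSPB1, HSPD1 and HSPE1. They were taken as every probe annotated to one of these symbols in the deposited table of probe signals, which gave 17 of its 47323 probes. Of these, 16 were among the 16021 probes above the detection limit, meaning that in 1 group or more each of the 3 arrays had a detection p-value below 0.01. The exception was ILMN_1774410 of HSPD1, which was above background on no array and is not considered further. The groups were AGS cells given verteporfin (VP), AGS cells given DMSO, MKN45 cells given VP and MKN45 cells given DMSO, with 3 Illumina HumanHT-12 V4 arrays each. VP is a photosensitizing drug of the porphyrin class used in macular degeneration, DMSO is its solvent, and AGS and MKN45 are established lines from human gastric adenocarcinoma, both grown in RPMI1640. The labels give 36 hours of treatment where the methods of the study give a longer one, and the sources used here state no dose for the arrays and no exposure to light. No source says whether replicate arrays are of separate cultures, and a p-value here is set by the scatter among these arrays, part of which may be technical.

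Chaperones bind unfolded stretches of other proteins and help them fold, refold or be degraded. In the cytosol, HSP70 proteins hold such stretches in cycles of ATP binding and hydrolysis, J-domain proteins such as DNAJB1 deliver the clients and start the hydrolysis, and HSP110 proteins such as HSPH1 exchange the nucleotide. HSP90 takes over clients close to their folded state, many of them kinases and steroid receptors, and small heat shock proteins such as HSPB1 hold unfolded proteins without using ATP. In the mitochondrial matrix, HSPD1 (HSP60) forms a barrel in which proteins fold, and HSPE1 (HSP10) is its lid. Many of these genes are switched on by heat shock factor 1 (HSF1), which binds repeats of the unit GAA in alternating orientation, the heat shock element.

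Promoter windows of the members are shown because several of these genes share that element. RefSeq (GRCh38.p14) gave 16 windows for the 10 genes, each from 250 bases before to 50 after a start site, and all 10 symbols matched. The motif GAANNTTCNNGAA was searched on both strands, where it reads TTCNNGAANNTTC on the other one. It was in 4 of the 16 windows, 1 each of HSPA8, HSP90AA1, HSP90AB1 and HSPD1, and in 0.49% of all 35116 windows of that length. The shorter motif GAANNTTC, which is its own reverse complement and part of the longer one, was in 9 windows of 8 genes, against 6.77% of all windows. HSPH1 and HSPE1 were the 2 genes with neither in a window. The HSPE1 window starts at chr2:197500129, and the HSPD1 stretch with the longer motif, printed below, ends just before it, at 197500090. Bases outside a gene's windows were not searched. TATAAA or TATATA, searched on the gene's strand only, was in 5 windows of 5 genes and in 10.2% of all windows. A match is a description of the letters and not a measured binding site. The stretches below run 5′ to 3′ on the strand of the gene. Capitals mark GAANNTTCNNGAA on either strand in HSPA8, HSP90AA1, HSP90AB1 and HSPD1, GAANNTTC in HSPA1A, HSPA1B and DNAJB1, and the TATA motif in HSP90AA1, HSPA1A, HSPA1B and DNAJB1. The stretch of HSP90AA1 precedes the second of 2 start sites, that of HSP90AB1 the third of 3, that of HSPD1 the second of 2 and that of DNAJB1 the second of 3. The final stretch holds all 104 bases between the start sites of HSPD1 and HSPE1, which are read in opposite directions, and carries none of these motifs.
HSPA8 (chr11:123062157-123062376, minus strand): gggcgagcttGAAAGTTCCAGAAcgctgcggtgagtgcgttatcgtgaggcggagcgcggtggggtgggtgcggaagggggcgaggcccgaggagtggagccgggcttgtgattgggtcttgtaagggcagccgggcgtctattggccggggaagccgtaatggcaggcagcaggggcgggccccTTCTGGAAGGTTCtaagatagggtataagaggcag
HSP90AA1 (chr14:102087065-102087144, minus strand): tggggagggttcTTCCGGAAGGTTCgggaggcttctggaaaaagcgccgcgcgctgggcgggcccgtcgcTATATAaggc
HSP90AB1 (chr6:44247773-44247852, plus strand): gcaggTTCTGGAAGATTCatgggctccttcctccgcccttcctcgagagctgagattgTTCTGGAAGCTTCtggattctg
HSPD1 (chr2:197500061-197500090, minus strand): gcattTTCTGGAAAGTTCTGGAAccgagcg
HSPA1A (chr6:31815423-31815522, plus strand): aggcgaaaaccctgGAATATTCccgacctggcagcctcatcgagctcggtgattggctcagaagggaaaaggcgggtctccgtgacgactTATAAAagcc
HSPA1B (chr6:31827618-31827717, plus strand): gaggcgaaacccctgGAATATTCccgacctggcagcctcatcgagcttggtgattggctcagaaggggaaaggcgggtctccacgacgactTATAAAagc
DNAJB1 (chr19:14518418-14518487, minus strand): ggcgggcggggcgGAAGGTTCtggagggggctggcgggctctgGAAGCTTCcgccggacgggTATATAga
HSPD1 to HSPE1 (chr2:197500275-197500378, plus strand): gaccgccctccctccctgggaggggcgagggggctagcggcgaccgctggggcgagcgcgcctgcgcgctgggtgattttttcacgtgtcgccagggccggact

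The windows of HSPA1A and HSPA1B were 92.6% identical over 299 aligned bases, and the genes are near-identical in their coding parts as well. The probe sequences were not used here, so whether 1 probe also reads the other transcript was not tested, and likewise for other close relatives in the HSP70 and HSP90 families.

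The authors deposited 2 tables of these arrays. The signals are linear intensities with detection p-values, and were corrected for background, quantile normalized across the 12 arrays and put on a log2 scale, so that all levels given below are log2 signals unless the value table is named. The median signal of an array lay between 98.4 and 137, and 14523 to 16571 probes were detected on an array at that limit. All 8 markers of epithelial cells (EPCAM and KRT8 among them) were above background on all arrays of all groups, and none of 7 fibroblast and 5 endothelial markers was above it on all arrays of any group. Only COL1A1 of these 12 passed on any array, 2 AGS VP arrays and 1 MKN45 VP array. Of 6 leukocyte markers with a probe, 3 were above background on all arrays of all groups, and 3 on none. The value table holds log2 levels that the authors normalized within each line, so its levels in AGS and MKN45 are not on one scale. The 2 tables differed beyond their scale. Of the 12 columns of the value table, 2 were closest by rank correlation to the equally named signal column, although all 12 were closest to one of their own line. The VP effects in the 2 tables correlated across the 16021 probes, which are not independent, at -0.076 in AGS and -0.11 in MKN45. An array is therefore called VP or DMSO by its label alone, and the value table is given separately after the signals.

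In the signals, the cytosolic chaperones HSPA1B, HSPA8, HSPH1 and HSP90AB1 and the mitochondrial lid HSPE1 were lower with VP in both lines. Both bright probes of HSP90AA1 were lower in AGS and had changes of -0.08 and -0.17 in MKN45, neither past the threshold, and no probe of HSPD1, the partner of HSPE1, was called lower. In AGS, 10 of the 16 member probes fell and 1 rose at an adjusted p under 0.05 (limma, Benjamini-Hochberg over all 16021 probes), against 27.5% of all probes that fell and 24.2% that rose, 51.6% together. In MKN45, 10 again fell and 1 rose, against 20.9% and 21.1% of all probes, 42% together. The median log2 change of the member probes was -0.78 in AGS and -0.53 in MKN45, where that of all probes tested was -0.03 and -0.02. HSPA1A was called in both lines as well, with the limit given below. When arrays were shifted to a common median in place of quantile normalization, the median change of all probes moved to 0.15 in AGS and 0.25 in MKN45, and all probes that fell and rose numbered 1818 and 4627 in AGS and 897 and 5065 in MKN45, where quantile normalization gave 4398 and 3870 in AGS and 3348 and 3384 in MKN45. With that shift 10 member probes still fell in AGS and 5 did in MKN45, and no member probe called in either setting turned its direction.

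**Figure D1:**
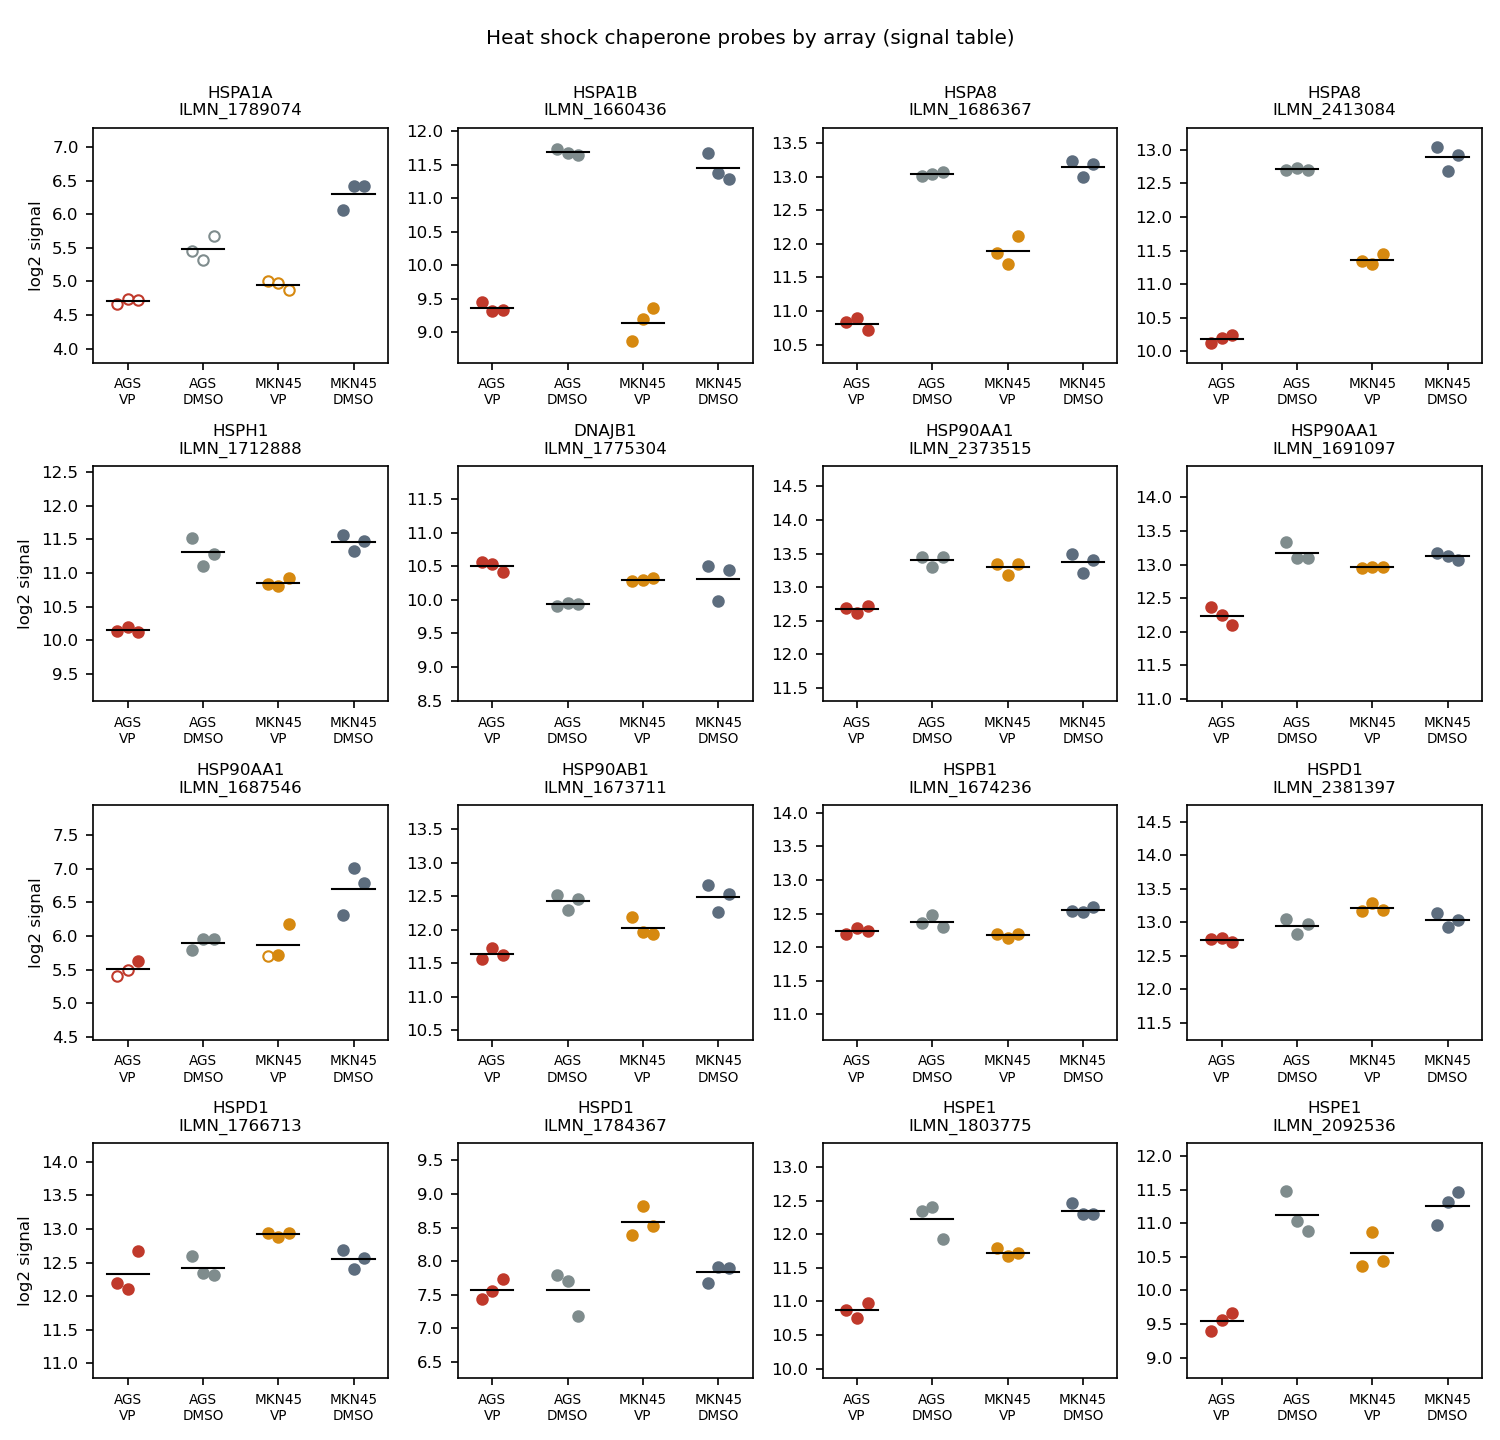
Log2 signal (vertical axis, of the same span in every panel) of the 16 detected member probes on each of the 12 arrays, with VP left of DMSO in each line. Points are arrays, open points are arrays where the probe was not above background and black lines are group means, and the VP points of HSPA1B and HSPA8 lie below all DMSO points of the same line.

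HSPA1B, an HSP70 that cells make mainly under stress, had the largest fall among the members in MKN45 and ranked 2 among all 16021 probes there by log2 change, and it ranked 10 in AGS. Its log2 signals were 9.45, 9.32 and 9.34 on the AGS VP arrays, against 11.73, 11.68 and 11.65 on the AGS DMSO arrays. In MKN45 they were 8.87, 9.20 and 9.36 with VP, against 11.67, 11.38 and 11.29 with DMSO. The highest VP array was thus 2.20 log2 units below the lowest DMSO array in AGS, and 1.93 below it in MKN45. The change was -2.32 in AGS (SE 0.133, adjusted p = 3.35e-08, limma) and -2.31 in MKN45 (adjusted p = 4.94e-08, limma), which are 5-fold and 4.95-fold falls. The change differed between the lines by -0.02 on the log2 scale, with a 95% interval from -0.42 to 0.39. It kept its direction and its call under every alternative run on the signals, including each array left out.

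HSPA1A, the twin gene of HSPA1B, was near the detection limit, and its probe was above background only on the 3 MKN45 DMSO arrays. In that line it had 5.0, 4.97 and 4.87 with VP, not above background, against 6.06, 6.42 and 6.42 with DMSO. On the background-corrected scale its level in MKN45 was at least 1.6-fold lower with VP, counted against the lowest signal that was above background. That bound, -0.68 in log2 units, was not itself tested. The fitted change on that scale was -1.35 (adjusted p = 2.86e-06, limma). Without background correction the change of HSPA1A was -0.50 (adjusted p = 3.21e-05, limma), smaller than the bound. In AGS it was not above background on any array, so no fold is given although the fit called it lower.

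HSPA8 (HSC70), the HSP70 that cells make at all times, was read by 2 probes that behaved alike. ILMN_1686367 had 10.83, 10.89 and 10.72 on the AGS VP arrays, against 13.01, 13.04 and 13.07 on the AGS DMSO arrays. In MKN45 it had 11.87, 11.70 and 12.11 with VP, against 13.24, 12.99 and 13.19 with DMSO. The DMSO levels of the lines overlapped, and the VP levels of AGS lay below all those of MKN45. This probe changed by -2.23 in AGS (SE 0.116, adjusted p = 1.28e-08, limma) and by -1.24 in MKN45 (adjusted p = 3.91e-06, limma). ILMN_2413084 changed by -2.53 in AGS and -1.52 in MKN45, which leaves 17.3% and 34.9% of the DMSO signal. The fall was larger in AGS than in MKN45 by 0.98 for ILMN_1686367 (adjusted p = 0.00398, limma interaction) and by 1.01 for ILMN_2413084 (adjusted p = 0.00164, limma interaction).

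HSPH1 (HSP110), the nucleotide exchange factor of cytosolic HSP70, had 10.13, 10.20 and 10.12 on the AGS VP arrays, against 11.52, 11.11 and 11.29 on the AGS DMSO arrays. On the MKN45 arrays it had 10.83, 10.80 and 10.92 with VP, against 11.56, 11.33 and 11.48 with DMSO. The VP and DMSO arrays did not overlap in either line. It changed by -1.16 in AGS (adjusted p = 3e-06, limma) and -0.61 in MKN45 (adjusted p = 0.000922, limma). With the median shift the change in MKN45 was -0.34 (adjusted p = 0.163, limma), or -0.58 relative to the median of all probes. The difference between the lines (-0.56, adjusted p = 0.0474, limma interaction) lost its call when any 1 of 11 of the 12 arrays was left out (adjusted p up to 0.101).

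DNAJB1 (HSP40), the J-domain partner of HSP70 in the heat shock response, was the only member that rose in AGS. It had 10.57, 10.54 and 10.42 on the AGS VP arrays, against 9.91, 9.96 and 9.94 on the AGS DMSO arrays, and the groups did not overlap. MKN45 cells had it at 10.28, 10.29 and 10.32 with VP, against 10.50, 9.99 and 10.44 with DMSO, which overlap. The change was 0.57 in AGS (adjusted p = 0.00175, limma) and -0.01 in MKN45 (adjusted p = 0.95, limma; 95% interval -0.28 to 0.26). The difference between the lines was 0.58 (adjusted p = 0.055, limma interaction), and was called under 4 processing alternatives, among them no background correction (adjusted p = 0.0191).

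HSP90AA1, the HSP90 form that stress induces, was lower with VP in AGS by both of its bright probes. ILMN_2373515 had 12.69, 12.61 and 12.72 on the AGS VP arrays, against 13.45, 13.30 and 13.45 on the AGS DMSO arrays. In MKN45 it had 13.35, 13.18 and 13.35 with VP, against 13.49, 13.21 and 13.41 with DMSO, and these overlap. The changes were -0.73 in AGS (adjusted p = 6.72e-05, limma) and -0.08 in MKN45 (adjusted p = 0.565, limma; 95% interval -0.30 to 0.14). ILMN_1691097 gave -0.93 in AGS (adjusted p = 8.52e-06, limma) and -0.17 in MKN45 (adjusted p = 0.204, limma), of which the second was called by the methods' t-test (adjusted p = 0.0337). The fall was larger in AGS by 0.65 and 0.76 for these probes (adjusted p = 0.0179 and 0.00797, limma interaction). The third probe of HSP90AA1, ILMN_1687546, lay near the detection limit and did not follow them. It was above background on 1 of 3 AGS VP arrays and 2 of 3 MKN45 VP arrays, and on all DMSO arrays. Its changes were -0.39 in AGS (adjusted p = 0.073, limma) and -0.83 in MKN45 (adjusted p = 0.00178, limma). The MKN45 call was lost with the methods' t-test (adjusted p = 0.0851), and AGS gained one with that test, with the arrays of AGS alone and with the replicate block (adjusted p = 0.0189 to 0.0495).

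HSP90AB1, the HSP90 form made at all times, had 11.56, 11.73 and 11.62 on the AGS VP arrays, against 12.51, 12.30 and 12.45 on the AGS DMSO arrays. On the MKN45 arrays it had 12.19, 11.96 and 11.93 with VP, against 12.66, 12.26 and 12.53 with DMSO. No VP array reached a DMSO array of its line, although the gap in MKN45 was 0.07. The changes were -0.78 in AGS (adjusted p = 0.000139, limma) and -0.46 in MKN45 (adjusted p = 0.00879, limma), and their difference was -0.33 (adjusted p = 0.239, limma interaction; 95% interval -0.70 to 0.04). With the median shift the change in MKN45 was -0.28 (adjusted p = 0.242, limma), or -0.53 relative to the median of all probes, and the methods' t-test lost that call too (adjusted p = 0.0878).

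HSPB1 (HSP27), a small heat shock protein, had 12.20, 12.29 and 12.24 on the AGS VP arrays, against 12.36, 12.48 and 12.30 on the AGS DMSO arrays. MKN45 cells had it at 12.19, 12.14 and 12.20 with VP, against 12.54, 12.53 and 12.60 with DMSO. The lowest DMSO array lay 0.01 above the highest VP array in AGS and 0.33 above it in MKN45. The changes were -0.14 in AGS (adjusted p = 0.207, limma) and -0.38 in MKN45 (adjusted p = 0.00407, limma), with no difference between the lines past the threshold (0.24, adjusted p = 0.236, limma interaction). With the median shift the change in MKN45 was -0.19 (adjusted p = 0.454, limma), or -0.44 relative to the median of all probes.

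HSPD1 and HSPE1, the barrel and the lid of the mitochondrial chaperonin, share the 104-base stretch printed above between their start sites, and their messages differed in how they changed with VP. HSPD1 by its brightest probe, ILMN_2381397, had 12.75, 12.77 and 12.71 on the AGS VP arrays, against 13.05, 12.82 and 12.97 on the AGS DMSO arrays. In MKN45 it had 13.17, 13.29 and 13.19 with VP, against 13.14, 12.93 and 13.04 with DMSO. The VP arrays lay just below the DMSO arrays in AGS and just above them in MKN45. Neither change was past the threshold (-0.20 in AGS and 0.18 in MKN45, with adjusted p-values of 0.103 and 0.148, limma), although without background correction ILMN_2381397 was just called lower in AGS (adjusted p = 0.0498). ILMN_1766713 of HSPD1 gave -0.09 in AGS and 0.36 in MKN45 (adjusted p = 0.625 and 0.0543, limma), and was called higher in MKN45 under 6 processing alternatives, among them the median shift (adjusted p = 0.0292). The dimmer ILMN_1784367 gave 0.01 in AGS and rose by 0.75 in MKN45 (adjusted p = 0.00267, limma), where it had 8.39, 8.82 and 8.53 with VP, against 7.68, 7.92 and 7.90 with DMSO.

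HSPE1 was read by 2 probes, and both fell in both lines. ILMN_1803775 had 10.88, 10.75 and 10.97 on the AGS VP arrays, against 12.35, 12.41 and 11.93 on the AGS DMSO arrays. On the MKN45 arrays it had 11.79, 11.67 and 11.72 with VP, against 12.46, 12.30 and 12.30 with DMSO. It changed by -1.36 in AGS (adjusted p = 1.87e-06, limma) and -0.63 in MKN45 (adjusted p = 0.00149, limma), which leaves 38.9% and 64.8% of the DMSO signal. ILMN_2092536 gave -1.58 in AGS (adjusted p = 1.14e-05, limma) and -0.69 in MKN45 (adjusted p = 0.00785, limma). With the median shift neither HSPE1 probe was called in MKN45 (-0.42 and -0.43, adjusted p = 0.0775 and 0.114, limma), at -0.67 and -0.67 relative to the median of all probes. The falls were larger in AGS by 0.74 and 0.89 (adjusted p = 0.0244 and 0.0474, limma interaction), and these calls were lost when any 1 of 5 arrays (adjusted p up to 0.0656) and any 1 of 10 arrays (up to 0.111) was left out, and both were lost with the median shift (adjusted p = 0.0605 and 0.0624).

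Across the members, the interaction test found 7 of 16 probes with a negative difference, AGS minus MKN45, and 0 with a positive one. The shares of all probes were 4.61% and 4.44%, 9.04% together. Each of the 7 had a larger fall in AGS than in MKN45. They were the probes of HSPA8, HSPH1 and HSPE1 and the brighter pair of HSP90AA1. HSPA1B was not among them. At an unadjusted p under 0.05 the test found 10 probes with a negative difference and 2 with a positive one, HSPA1A and DNAJB1, against 14.2% and 12.8% of all probes. Among the 10 were the detected probes of HSPD1, which had changes above 0 in MKN45 (0.18, 0.36 and 0.75). Their changes in AGS were -0.20, -0.09 and 0.01, none past the threshold.

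**Figure D2:**
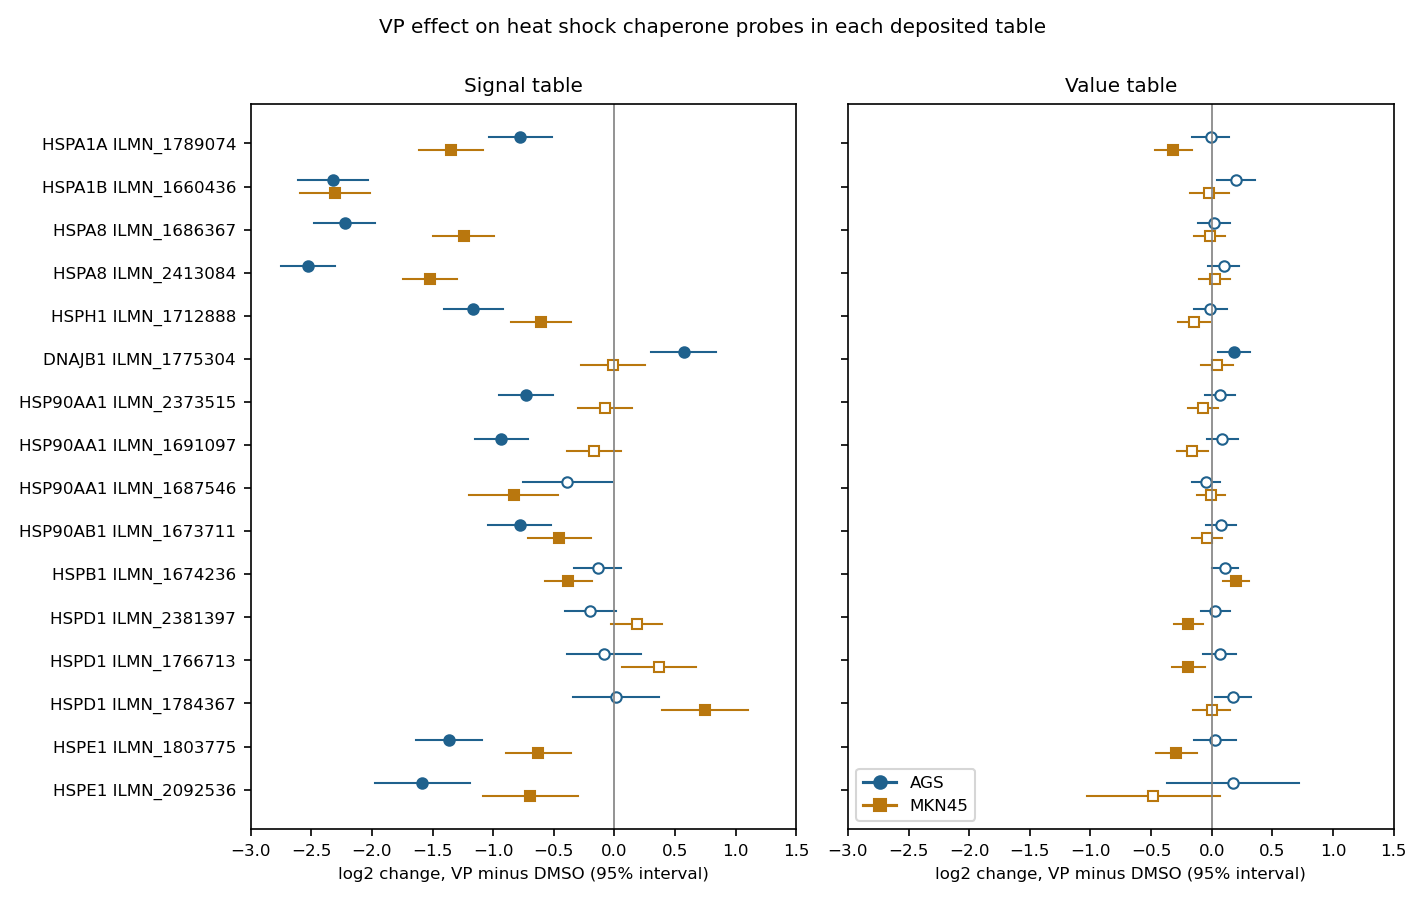
Log2 change, VP minus DMSO (horizontal axis), of the 16 detected member probes with 95% intervals, in AGS (circles) and MKN45 (squares), from the signals (left) and from the value table (right), with filled marks past an adjusted p of 0.05. The signals spread from -2.53 to 0.75 and the value table from -0.48 to 0.20, and HSPA1A was not above background in AGS in the signals.

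Chaperones that work together were also set against each other on the same array. The difference of their log2 signals was compared between VP and DMSO for 6 pairs by an exact two-sided permutation test within each line (400 arrangements, smallest possible p = 0.005), adjusted over the 6. HSPD1 over HSPE1 was higher with VP by 1.16 log2 units in AGS and 0.81 in MKN45 (mean 0.99, adjusted p = 0.0075, exact permutation). DNAJB1 over HSPA8 was higher by 2.80 in AGS and 1.23 in MKN45 (mean 2.01, adjusted p = 0.0075, exact permutation). HSPH1 over HSPA8 was higher by 1.06 and 0.64 (mean 0.85, adjusted p = 0.0075, exact permutation). In these 3 pairs every VP array was above every DMSO array of its line. HSPA1B over HSPA8 was lower by 0.10 in AGS and 1.06 in MKN45 (mean -0.58, adjusted p = 0.024, exact permutation). That call was lost with the median shift (adjusted p = 0.096) and without background correction (adjusted p = 0.055). HSP90AA1 over HSP90AB1 was higher by 0.05 in AGS and 0.38 in MKN45 (mean 0.215, adjusted p = 0.025, exact permutation). Its call was lost with the median shift (adjusted p = 0.745) and without AGS VP replicate 1, MKN45 DMSO replicate 1 or MKN45 DMSO replicate 2 (adjusted p up to 0.075). HSPA1A over HSPA1B was higher by 1.55 and 0.96 (mean 1.25, adjusted p = 0.0075, exact permutation). However, HSPA1A was above background on the MKN45 DMSO arrays only, so this ratio sets HSPA1B against background on the others.

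Of the 6 pairs, 1 was called in the value table, and in the direction opposite to the signals. HSPA1A over HSPA1B was lower there by 0.21 in AGS and 0.30 in MKN45 (mean -0.25, adjusted p = 0.03, exact permutation). That table has no detection p-values. Its background limit was therefore set on each array at the most common value plus a margin taken from the spread of the values below it. In AGS, HSPA1A lay near this background, above it on 2 of 3 arrays of each group, and changed by -0.01. The AGS part of that ratio thus sets HSPA1B against a level near background. The mean change was 0.05 for HSPD1 over HSPE1 (adjusted p = 0.642, exact permutation) and 0.11 for DNAJB1 over HSPA8 (adjusted p = 0.195, exact permutation). It was -0.08 for HSPH1 over HSPA8 (adjusted p = 0.322, exact permutation), 0.09 for HSPA1B over HSPA8 (adjusted p = 0.322, exact permutation) and -0.02 for HSP90AA1 over HSP90AB1 (adjusted p = 0.65, exact permutation).

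**Figure D3:**
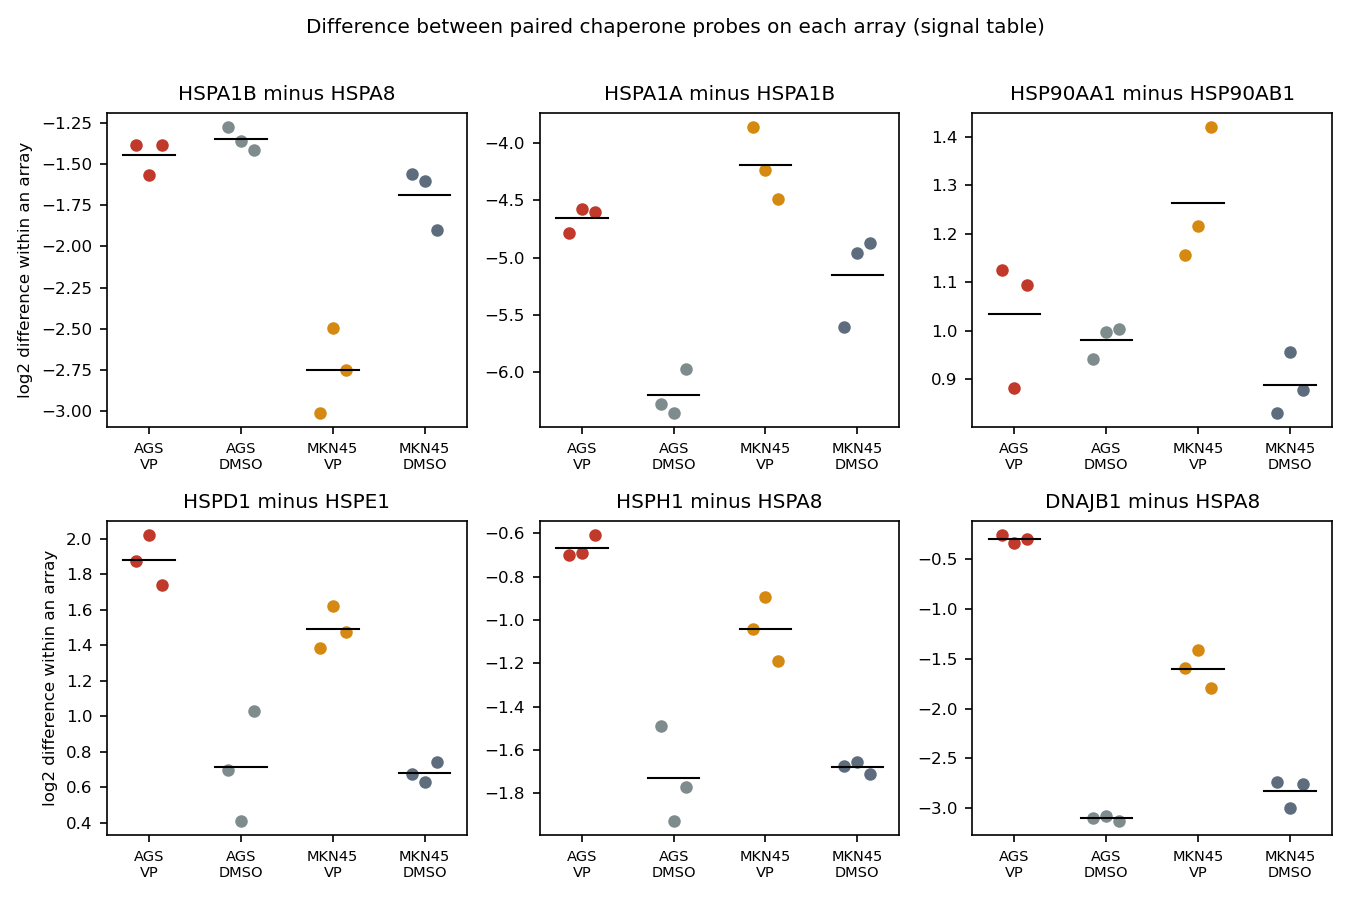
Log2 difference between 2 member probes on the same array (vertical axis, its own range in each panel) for the 6 pairs, with VP left of DMSO in each line; points are the 3 arrays of a group and black lines their means. HSPD1 minus HSPE1 and DNAJB1 minus HSPA8 are higher on every VP array than on any DMSO array of the same line.

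With DMSO alone, most member messages of the lines lay close to each other in the signals. Of the 16 probes, 2 were lower in AGS than in MKN45 and 0 were higher, against 7.03% and 8.18% of all probes, 15.2% together. At an unadjusted p under 0.05 there were 3, against 28.8% of all probes. Those past the adjusted threshold were the probes near the detection limit, HSPA1A and ILMN_1687546 of HSP90AA1. The other 14 probes differed by -0.37 to 0.24, DNAJB1 and HSPA1B being at the ends of that range, and DNAJB1 was called under 4 processing alternatives (adjusted p = 0.0255 to 0.0496). In the value table, HSPA1A with DMSO averaged 6.73 in AGS and 10.3 in MKN45, where the background limits were 6.72 and 6.73. The lines are not on one scale in that table, but HSPA1A was near background there in AGS only.

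In the value table the members changed less, and most of the falls of the signals were not called. All member probes lie before the row, 21197, past which its values belong to the probe of the next row, so that correction touches none of them. In AGS, 1 of the 16 probes rose and 0 fell (limma, against 13.4% and 11.8% of all probes, 25.2% together), and at an unadjusted p under 0.05 there were 4, against 36.2% of all probes. In MKN45, 1 rose and 4 fell, against 8.98% and 8.91% of all probes, 17.9% together, and 7 passed unadjusted, against 29.5%. The median change of the member probes was 0.07 in AGS and -0.06 in MKN45, where that of all probes was 0.025 and 0.014. HSPA1B, the largest member fall of the signals in MKN45, had 10.95, 10.91 and 10.95 on the AGS VP arrays of that table. On its AGS DMSO arrays it had 10.67, 10.92 and 10.62. In MKN45 it had 10.97, 11.14 and 11.04 with VP, against 10.93, 11.09 and 11.20 with DMSO. The groups overlapped in both lines, with changes of 0.20 (adjusted p = 0.062, limma) and -0.02 (adjusted p = 0.902, limma). HSPA1B in AGS was called higher there with the replicate block (adjusted p = 0.0471) and with the brightest probe per gene (adjusted p = 0.0446). HSPA8 by ILMN_1686367 had changes of 0.02 and -0.02 there, with 95% intervals from -0.11 to 0.15 and from -0.15 to 0.11, which leave out the falls of the signals.

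DNAJB1 was the one member that rose in AGS in both tables. In the second of them it had 9.72, 9.67 and 9.53 with VP, against 9.39, 9.55 and 9.43 with DMSO, a change of 0.18 (adjusted p = 0.0384, limma) with overlapping groups. That call was lost without AGS VP replicate 1 or 2 or AGS DMSO replicate 1 or 3 (adjusted p up to 0.17), and also without a filter, with the arrays of AGS alone and with the methods' t-test (adjusted p = 0.0604 to 0.227). The methods' t-test likewise lost each of the MKN45 calls of the value table for HSPE1, HSPA1A and HSPD1 that follow (adjusted p = 0.0724 to 0.278). In MKN45, the value table had HSPE1 by ILMN_1803775 at 12.05, 11.94 and 11.90 with VP, against 12.24, 12.33 and 12.20 with DMSO, a fall as in the signals (change -0.29, adjusted p = 0.0162, limma), though its call was lost without MKN45 VP replicate 2 or 3 or MKN45 DMSO replicate 2 (adjusted p up to 0.0779). The HSPA1A probe lay near the detection limit in MKN45 of the signals, above background with DMSO only. In the value table it was far from background in that line and lower with VP by 0.32 (adjusted p = 0.00349, limma). It had 9.95, 9.97 and 10.11 there with VP, against 10.20, 10.35 and 10.42 with DMSO. HSPD1 was lower by 0.19 at both bright probes (adjusted p = 0.0236 and 0.0417, limma), where the signals gave changes above 0, and these calls were lost when any 1 of 2 and of 5 arrays was left out (adjusted p up to 0.148 and 0.244). HSPB1 was higher by 0.20 (adjusted p = 0.0103, limma; 0.0516 without MKN45 VP replicate 2), where the signals had it lower in that line. The limma interaction test called 0 of 16 probes higher and 0 lower in the value table, against 3.87% and 5.06% of all probes, 8.93% together, and 5 at an unadjusted p under 0.05, against 22.7% of all probes.

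Other genes of the chaperone network were followed through 7 lists of 100 genes that hold no member, with the brightest detected probe for each gene. Of these, 74 genes were measured. Among them the signals had 14 rises and 31 falls in AGS, and 9 rises and 16 falls in MKN45, of which 7 rises and 15 falls were shared by the lines. In AGS these are 18.9% and 41.9% of the 74, against 24.2% and 27.5% of all probes, and in MKN45 12.2% and 21.6%, against 21.1% and 20.9%. Under the median shift the 74 had 17 rises and 11 falls in AGS, and 16 rises and 3 falls in MKN45. The value table had 15 higher and 2 lower with VP in AGS, and 7 higher and 5 lower in MKN45.

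Of the HSP70 and HSP90 cochaperones, 21 were measured, with 2 rises and 11 falls in AGS, and 1 rise and 7 falls in MKN45. The falls are 52.4% of the list in AGS and 33.3% in MKN45, against 27.5% and 20.9% of all probes. STIP1 (HOP), which links HSP70 to HSP90, changed by -0.77 in AGS and -0.46 in MKN45 (adjusted p = 0.001 and 0.0266, limma), and its MKN45 call was lost without MKN45 VP replicate 2 or MKN45 DMSO replicate 1 or 3 (adjusted p up to 0.128). The HSP90 immunophilin FKBP4 changed by -1.23 and -0.82, the HSP90 partner SUGT1 by -0.998 and -0.64 and CHORDC1, another HSP90 partner, by -0.78 and -0.44, each past the threshold in both lines. The MKN45 calls of STIP1, SUGT1 and CHORDC1 were lost with the median shift (changes -0.17, -0.33 and -0.10, adjusted p = 0.514, 0.209 and 0.727, limma). BAG3, an HSP70 exchange factor of the heat shock response, had changes of 0.02 in AGS and 0.26 in MKN45 (adjusted p = 0.852 and 0.0489, limma), and that MKN45 call was lost when any 1 of 10 arrays was left out (adjusted p up to 0.175).

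Of the J-domain proteins outside mitochondria, a list that includes DNAJB12 and DNAJB14 of the endoplasmic reticulum membrane, 13 were measured, with 2 rises and 8 falls in AGS, and 2 rises and 3 falls in MKN45. The falls are 61.5% of the list in AGS and 23.1% in MKN45, against 27.5% and 20.9% of all probes. DNAJA1, a J-domain partner of HSPA8, fell by 1.67 in AGS (adjusted p = 3.01e-07, limma) and by 1.03 in MKN45 (adjusted p = 3.42e-05, limma). DNAJC8 and DNAJC9 also fell in both lines, but with the median shift DNAJC9 lost its call in AGS (-0.36, adjusted p = 0.139, limma) and both did in MKN45 (-0.19 and -0.34, adjusted p = 0.47 and 0.164, limma). DNAJB14 and DNAJC5, the cysteine string protein of vesicles, rose in both, by 0.66 and 0.49 in AGS. The AGS call of DNAJB14 was lost with the methods' t-test (adjusted p = 0.132), and its MKN45 call without a filter (adjusted p = 0.0582) and without MKN45 VP replicate 3 or MKN45 DMSO replicate 1 or 3 (adjusted p up to 0.0702).

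Of the other HSP70 and HSP110 genes, 6 were measured, with 2 rises and 4 falls in AGS, and 1 rise and 1 fall in MKN45, or 66.7% and 16.7% falls, against 27.5% and 20.9% of all probes. HSPA13 was higher by 1.45 in AGS and 1.42 in MKN45, although it was above background on 1 of 3 AGS DMSO arrays. HSPA2, best known from the testis, was lower by 1.62 in AGS and 1.45 in MKN45, and was above background on 2 of 3 VP arrays in each line. Without background correction the changes were 0.68 and 0.72 for HSPA13 and -0.79 and -0.76 for HSPA2, with all calls kept. HSPA4, an HSP110 protein, had changes of 0.34 in AGS and 0.33 in MKN45 (adjusted p = 0.0419 and 0.0548, limma). The call of HSPA4 in AGS was lost when any 1 of 7 arrays was left out (adjusted p up to 0.156), and HSPA4 was called higher in MKN45 under 5 processing alternatives, among them the median shift (0.67, adjusted p = 0.00392, limma).

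Small heat shock proteins other than HSPB1 had 1 measured gene, HSPB8, the partner of BAG3 in selective autophagy. It averaged 10.27 ± 0.188 with VP and 7.98 ± 0.17 with DMSO in AGS (SD, n = 3 arrays each), and 10.75 ± 0.106 and 8.84 ± 0.211 in MKN45. Its change was 2.29 in AGS and 1.91 in MKN45 (adjusted p = 4.49e-08 and 3.43e-07, limma), while HSPB1 had changes of -0.14 and -0.38. In the value table HSPB8 had changes of 0.18 and 0.19 (adjusted p = 0.0503 and 0.0546, limma), and was not above background on any MKN45 DMSO array.

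Of the cytosolic chaperonin CCT and prefoldin, which fold actin and tubulin, 14 genes were measured, and 0 rose while 6 fell in AGS and 3 fell in MKN45. The falls are 42.9% of the list in AGS and 21.4% in MKN45, against 27.5% and 20.9% of all probes. CCT5 changed by -0.51 in each line, and CCT3 by -0.64 in AGS and -0.31 in MKN45, where the call was lost when any 1 of 5 arrays was left out (adjusted p up to 0.132). CCT5 lost its call with the median shift in AGS (-0.24, adjusted p = 0.336, limma) and in MKN45 (-0.20, adjusted p = 0.44, limma), and CCT3 in MKN45 (-0.07, adjusted p = 0.812, limma). The mitochondrial chaperones and proteases had 18 measured genes, with 7 rises and 1 fall in AGS, and 4 rises and 1 fall in MKN45. The rises are 38.9% of the list in AGS and 22.2% in MKN45, against 24.2% and 21.1% of all probes. The matrix protease LONP1 rose by 0.82 in AGS and 0.68 in MKN45, the unfoldase CLPX by 0.69 and 0.78, and GRPEL2, an exchange factor of mitochondrial HSP70, by 0.60 and 0.55. DNLZ, which keeps mitochondrial HSP70 soluble, was the one that fell in both lines, by 0.38 and 0.56, and with the median shift both calls of DNLZ were lost (-0.18 and -0.23, adjusted p = 0.471 and 0.356, limma). HSPA9 (mortalin), the mitochondrial HSP70 itself, rose by 0.63 in AGS (adjusted p = 0.00066, limma) and had a change of 0.31 in MKN45 (adjusted p = 0.0522, limma), which was called with the median shift (0.52, adjusted p = 0.0229, limma) and under 4 other processing alternatives. TRAP1, the mitochondrial HSP90, had changes of 0.21 and 0.07, neither past the threshold, although the methods' t-test called TRAP1 in AGS (adjusted p = 0.0489). Of the heat shock factors and their binding proteins, only HSBP1, which binds HSF1, was measured, and it changed by -0.60 and -0.38 (adjusted p = 0.000129 and 0.00499, limma). Both calls of HSBP1 were lost with the median shift (-0.40 and -0.04, adjusted p = 0.0827 and 0.903, limma). The HSF1 probe did not pass the detection limit, and HSF2 and AHSA1 likewise had no detected probe under their symbols.

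**Figure D4:**
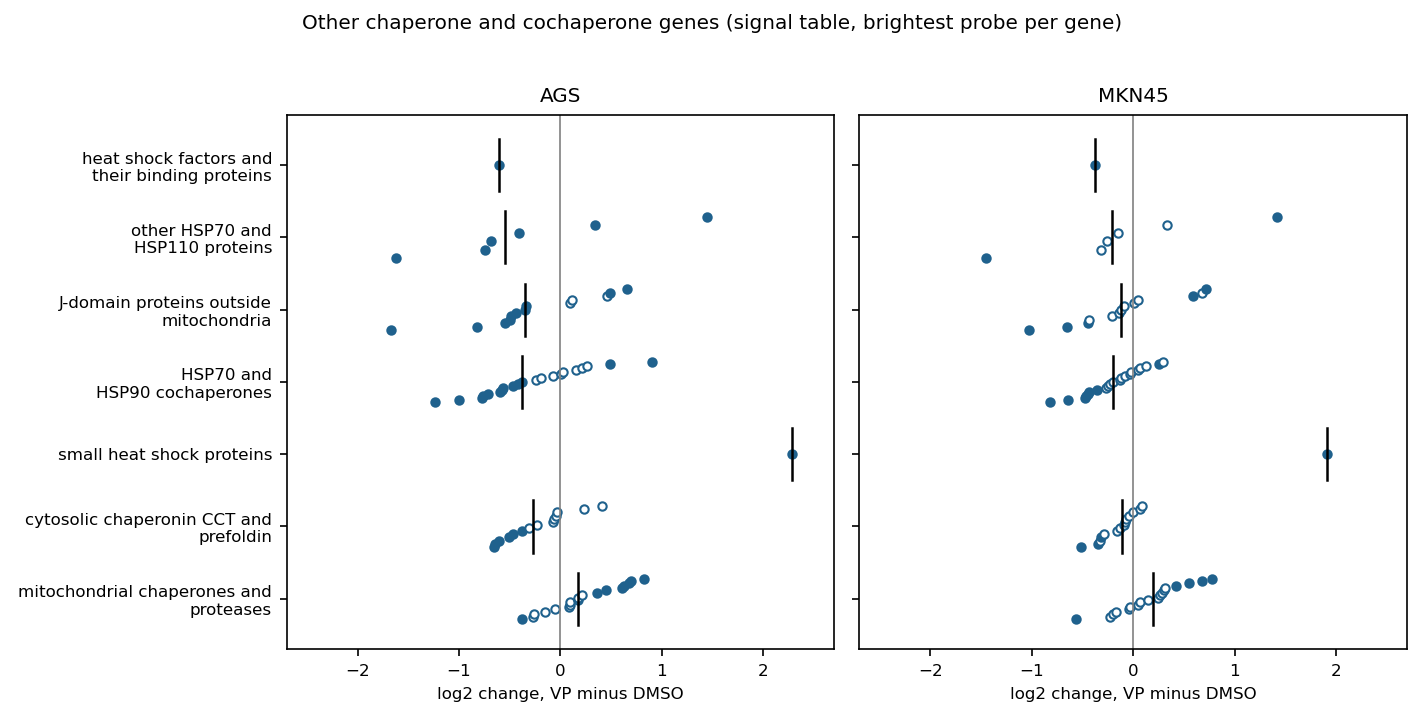
Log2 change in the signals, VP minus DMSO (horizontal axis), of the 74 measured genes of 7 chaperone lists in AGS (left) and MKN45 (right). Each point is a gene, filled where the adjusted p was under 0.05, and black lines are list medians, which run from -0.60 to 2.29 in AGS with 0.17 for the mitochondrial list and -0.38 for the cochaperones.

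The genes whose signals ran most like those of HSPA1B over the 12 arrays, by Pearson's r among 12804 named probes, were LIPG (0.991), SNORD99 (0.987), SNORA61 (0.986), FOXD4 (0.985) and PODXL (0.984), with log2 changes between -2.57 and -1.07 in AGS and between -2.22 and -1.07 in MKN45. Those most like HSPD1 (ILMN_2381397) were FHIP2A (0.966), FASTKD1 (0.961), EFR3A (0.960), EMC1 (0.954) and KIF20B (0.947), which changed by -0.54 to -0.15 in AGS and by 0.13 to 0.29 in MKN45. The 12 arrays fall into 4 groups, so these values describe a shared pattern over groups and carry no test.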

How the data were processed

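RNA of 12 samples labelled AGS or MKN45 and VP or DMSO was hybridised to Illumina HumanHT-12 V4 arrays, and columns were tied to samples by name. The authors deposited linear signal intensity with a detection p-value per probe (processing notes: GenomeStudio, version not given in the sources used here) and a value table of log2 levels, which their methods describe as quantile normalized. Whether the scanner software had subtracted background is not given in the sources used here. Signals were processed by neqc (normexp from detection p-values, offset 16, quantile) in limma 3.58.1 under R 4.3.3. The value table was used as given, with values past row 21197 moved to the probe of the next row and the last row, of linear signals, left out. Probes, 30113 of them with 1 symbol in the platform annotation, 8 with several and 17202 with none, were fitted with lmFit and eBayes as 4 group means over all 12 arrays, on simulated data first, with Benjamini-Hochberg adjustment over 16021 detected probes. Where no array of a group had a probe above background, only a bound is given, the other group's mean minus the mean of, per array, the higher of its own level and the lowest signal above background. All member probes were named, with 9 preset partners where measured, up to 3 genes per list and direction called the same way in both lines of the signals, and the 5 probes most correlated with HSPA1B and HSPD1. Members, lists and tests were chosen with earlier results of these data known. The number of arrays limits the precision. Same-numbered VP and DMSO arrays were not treated as pairs in the main fit. Correlations of their deviations ran from -0.107 to 0.211, and those of differently numbered arrays from -0.23 to 0.218. With so few arrays in a group these values cannot show whether arrays were paired. Alternatives were another scaling, background, offset, filter, probe choice, samples fitted and replicate block. Others were an ordinary two-sample t-test, names as deposited in the value table, and each array left out. That t-test takes the spread of each probe by itself, where the methods of the study name a random variance t-test.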

Additional observations from a re-analysis of the deposited data

Results flagged for a closer look

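In the signals, 7 member probes had a VP effect that differed between the lines by the limma interaction test, the fall being larger in AGS each time. The difference of the log2 changes, AGS minus MKN45, was -0.982 for HSPA8 by ILMN_1686367 (adjusted p = 0.00398) and -1.007 by ILMN_2413084 (adjusted p = 0.00164). It was -0.649 for HSP90AA1 by ILMN_2373515 (adjusted p = 0.0179) and -0.763 by ILMN_1691097 (adjusted p = 0.00797). It was -0.557 for HSPH1 (adjusted p = 0.0474), and -0.735 for HSPE1 by ILMN_1803775 (adjusted p = 0.0244) and -0.891 by ILMN_2092536 (adjusted p = 0.0474). In the value table, the same 7 probes had differences of 0.036, 0.076, 0.142, 0.245, 0.136, 0.316 and 0.654 in that order, none past the threshold and all of the opposite sign. Which table holds the arrays that the labels name was not tested.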

How the results depend on the processing

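No member probe that was called in the signals or the value table turned its direction under any alternative run. With the median shift, 5 member probes were called lower and 2 higher in MKN45 of the signals, against 10 and 1, and 4 negative differences between the lines were called, against 7. Under the same shift, list genes that fell numbered 11 in AGS and 3 in MKN45, against 31 and 16, and 16 rose in MKN45, against 9. The pairs HSPA1B minus HSPA8 and HSP90AA1 minus HSP90AB1 had values of -0.448 and 0.035 there, and HSPA1B minus HSPA8 had -0.442 without background correction, all past no threshold. Member probes higher in MKN45 numbered 2 without background correction, with an offset of 50, with probes detected on all 12 arrays and with the arrays of a line alone. They also numbered 2 with the two-sample t-test, and 0 with the brightest probe per gene. Positive differences between the lines numbered 1 without background correction, with the offset of 50 and with detection on all 12 arrays, and 2 with the brightest probe per gene, where negative ones numbered 4, as they did without a filter. In DMSO, 0 member probes differed when detection on all 12 arrays was asked.

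The replicate block within each line left 4 negative differences in the signals (HSPH1 and both HSPE1 probes lost their call) and gave 2 rises in AGS and 2 positive differences in the value table. In the value table, the AGS rise numbered 0 without a filter, with the arrays of the line alone and with the two-sample t-test. It numbered 2 with the brightest probe per gene, where list genes that rose in MKN45 numbered 11 and positive differences 1. With the two-sample t-test, 0 member probes fell in MKN45 in the value table. List genes there numbered 2 higher in AGS, 2 higher in MKN45 and 1 lower in MKN45 with that test. At an unadjusted p under 0.05, a looser limit than that of the study, it called 7935 probes in AGS and 7011 in MKN45 of the signals. After Benjamini-Hochberg adjustment it called 6083 and 4430. In the value table it called 4459 and 4130 unadjusted, and 1536 and 1204 adjusted. Names as deposited in the value table changed no member.

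Leaving out 1 array at a time gave, in the signals, 10 to 11 falls and 1 rise in AGS, 10 falls and 1 to 2 rises in MKN45, 4 to 7 negative and 0 to 1 positive differences, and 2 to 3 probes lower and 0 higher in AGS DMSO than in MKN45 DMSO. In the value table it gave 0 to 2 rises and 0 falls in AGS, 0 to 1 rises and 1 to 5 falls in MKN45, and 0 to 2 positive differences. List genes ranged over 13 to 14 rises and 25 to 32 falls in AGS and 7 to 10 and 11 to 17 in MKN45 of the signals, and over 7 to 17 and 2 to 3 in AGS and 4 to 9 and 2 to 5 in MKN45 of the value table. HSP90AA1 minus HSP90AB1 ranged from 0.169 to 0.255. Of all probes, calls moved by over 1.5 times with the median shift (415 higher in AGS DMSO than MKN45 DMSO against 1310, and 246 positive and 249 negative differences against 711 and 738). They did so without a filter (361 and 357 differences) and with the replicate block (446 negative). With 1 probe per gene, 2553 were higher and 2913 lower in AGS and 2225 higher in MKN45, of 9696. With the two-sample t-test, calls fell to 2078 lower in MKN45. The cause of these changes was not tested, other than that fewer features are tested with 1 probe per gene. Signal over background limits HSPA1A, ILMN_1687546 of HSP90AA1 and HSPA13, and the spread within groups of 3 arrays limits the rest.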
